A study of Mus musculus with 25 samples.

Results

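The question here was whether Neurog2 and Hmgb2 delivered together opened chromatin in astrocytes beyond what the effects of each factor alone add up to. The measure was the interaction, (Neurog2+Hmgb2 minus Neurog2) minus (Hmgb2 minus Control), taken at each accessible site in each of the 2 cultures and averaged over both. A positive interaction means that the joint effect exceeded the sum of the single effects on the log2 scale. All 25 of 25 libraries entered the fit, and 45642 of 45672 peaks were tested. The 30 peaks left out were 1 mitochondrial peak, 1 peak sharing the Neurog2 coding sequence and 28 peaks sharing the Hmgb2 coding sequence, where the viral inserts themselves can be counted.

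Open chromatin was mapped by ATAC-seq, in which a transposase cuts open DNA, in astrocytes grown from the cerebral cortex of early postnatal wild-type C57BL/6J mice. Before transduction the astrocytes grew with 10 ng/ml bFGF alone (bFGF culture) or with EGF and bFGF at 10 ng/ml each (EGF+bFGF culture). They were transduced with MMLV-based retroviruses that drive the insert from the CAG promoter, sorted by fluorescence 48 h later, and 50000 sorted cells went into each library. Per the labels, each culture had a Neurog2+Hmgb2, a Neurog2, a Hmgb2 and a Control group, the last transduced with GFP alone, with 3 libraries in each group and 4 in the EGF+bFGF Hmgb2 group. Such retroviruses integrate only in dividing cells, and the promoter is active in every cell type of the culture. In the study, Neurog2 and Hmgb2 were on separate viruses, with the reporters dsRED and GFP, and cells for both were co-transduced. The joint group thus also differs in carrying both viruses and reporters, and the interaction cannot be told apart from that difference. Whether a group's libraries derive from different animals or dishes is not stated in the labels, so the spread behind each p-value may be partly technical.

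Neurog2 is a proneural basic helix-loop-helix factor that binds E-box sequences and can open closed chromatin when it turns other cells into neurons. Hmgb2 is an abundant nuclear protein whose HMG boxes bend DNA without much preference for sequence, and it is linked to dividing progenitors and to neurogenesis in the brain. Cortical astrocytes share a lineage with neurons, and overexpressed proneural factors can turn them into neurons in culture.

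The sites below carry the main results, and their bases are printed from the GRCm38 genome (the mm10 assembly of the files), plus strand. The first is the first 300 bases of an intergenic site 16.6 kb from the start of Neurod4, a downstream proneural gene, at chr10:130263208-130263507, where Neurog2 opened chromatin in both cultures. Its 1 copy of the E-box CAGATG, read here as the reverse complement CATCTG, is in capitals.
Neurod4 distal site: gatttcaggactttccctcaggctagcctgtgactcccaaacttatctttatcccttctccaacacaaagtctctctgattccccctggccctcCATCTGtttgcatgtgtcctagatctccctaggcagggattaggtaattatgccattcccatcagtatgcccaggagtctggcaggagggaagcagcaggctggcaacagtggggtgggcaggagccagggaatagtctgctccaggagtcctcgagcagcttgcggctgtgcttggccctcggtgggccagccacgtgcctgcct
The second pair is 200 bases of the intergenic site with the smallest p of the averaged interaction, named after Gm31371 at 196 kb (chr8:20100360-20100559), and the matching 200 bases of another peak nearby (chr8:20528854-20529053). The pair shows how alike the peaks of this region are: 97.5% of the bases are the same, and the 5 that differ are in capitals.
Gm31371 site: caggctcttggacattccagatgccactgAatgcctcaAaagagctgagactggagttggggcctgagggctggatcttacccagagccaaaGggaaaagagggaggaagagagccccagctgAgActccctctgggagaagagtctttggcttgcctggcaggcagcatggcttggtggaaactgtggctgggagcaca
copy: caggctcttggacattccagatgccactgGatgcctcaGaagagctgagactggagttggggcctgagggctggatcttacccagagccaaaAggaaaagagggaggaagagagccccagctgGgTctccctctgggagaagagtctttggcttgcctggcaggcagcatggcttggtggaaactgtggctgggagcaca
The last is a peak over a coding exon of Calb1, the calcium-binding protein calbindin (chr4:15895412-15895561), 1 of 5 peaks over Calb1 exons with large positive interactions in bFGF culture. The 84 coding bases are in capitals.
Calb1 exon site: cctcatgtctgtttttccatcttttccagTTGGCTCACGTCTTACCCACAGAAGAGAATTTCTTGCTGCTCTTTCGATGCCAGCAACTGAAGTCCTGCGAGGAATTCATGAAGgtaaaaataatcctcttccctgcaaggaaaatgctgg

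Signal is given throughout as rlog values, a log2 scale of reads per peak that scales libraries to each other. A difference of 1 is 2-fold on that scale, but rlog shrinks the differences of weak peaks. Depth per library is unknown because the files hold no counts. Replicate 2 of bFGF Neurog2 correlated least with the rest of its group (mean Pearson r of 0.935 across peaks). At the peak sharing the Neurog2 coding sequence, 2 libraries labelled Hmgb2 had high signal (12.7 in bFGF replicate 1, 12.3 in EGF+bFGF replicate 1). Both lay above bFGF Neurog2 replicate 2 (10.6), EGF+bFGF Neurog2 replicate 3 (12.2) and bFGF Neurog2+Hmgb2 replicate 3 (11.8). EGF+bFGF Control replicates 1 and 2 had 10.3 and 10.5 there. The counts of called peaks, the named sites and the scores of site classes were therefore also computed without each library in turn. Without either of these Hmgb2 libraries no peak was called for any interaction that uses it. The genome regions, peak sets, gene lists, motif groups and comparison of cultures across peaks were described with all 25 libraries only.

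No peak reached an adjusted p under 0.05 for the interaction in either culture, for the average of the 2 cultures or for their difference (limma, Benjamini-Hochberg over 45642 peaks, 0% of peaks called in each). In bFGF culture 1595 peaks (3.49%) had a positive and 1156 (2.53%) a negative interaction at an unadjusted p under 0.05, so that 2751 (6.03%) passed in either direction, and the smallest adjusted p was 0.214. The counts in EGF+bFGF culture were 1143 positive (2.5%) and 569 negative (1.25%), together 1712 (3.75%), with no adjusted p under 0.9998. Averaged over the cultures, 2026 peaks (4.44%) were positive and 1200 (2.63%) negative at the unadjusted threshold, together 3226 (7.07%), and the smallest adjusted p was 0.0653. Positive interactions outnumbered negative ones in all 3, while the median over all peaks was -0.01, 0.00 and -0.01. Another tool was not run, since the values are not counts. The absence of calls depended on the fit for the averaged interaction. With libraries weighted by their closeness to their group, 239 peaks were called positive and 10 negative, without EGF+bFGF Control replicate 1 there were 176 and 1, and without EGF+bFGF Hmgb2 replicate 4 there were 181 and 2. Fewer calls arose without bFGF Neurog2+Hmgb2 replicate 3 (4 peaks) and without bFGF Hmgb2 replicate 3 (1 peak). For the bFGF interaction, 4 peaks were called without bFGF Control replicate 1, and 4 when the libraries of that culture alone were fitted.

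The intervals say how large an interaction could still be on the rlog scale. The median standard error of a peak was 0.258 in bFGF culture, 0.249 in EGF+bFGF culture and 0.179 for the average. The upper bound of the 95% interval lay below 1, that is below 2-fold, at 42668 peaks (93.5%) in bFGF culture, at 43577 (95.5%) in EGF+bFGF culture and at 44803 (98.2%) for the average. The bound reached 1 at 2974, 2065 and 839 peaks, so a joint effect of 2-fold over the sum was not excluded by its interval there. Because rlog shrinks differences of weak peaks, a bound below 1 does not exclude a 2-fold effect in reads at such peaks either.

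The effects that enter the interaction were of unequal size. Against Control in bFGF culture, 1171 peaks rose with Neurog2+Hmgb2 (2.57%) and 210 fell (0.46%), while 420 rose (0.92%) and 168 fell (0.368%) with Neurog2 alone. With EGF as well, 1797 rose (3.94%) and 489 fell (1.07%) with Neurog2+Hmgb2, and 1801 rose (3.95%) and 493 fell (1.08%) with Neurog2 alone. Rises of more than 2-fold were fewer, 187 with Neurog2+Hmgb2 (0.41%) and 58 with Neurog2 (0.127%) in bFGF culture, and 307 with Neurog2+Hmgb2 (0.673%) and 348 with Neurog2 (0.762%) in EGF+bFGF culture. No peak was called for Hmgb2 against Control or for Neurog2+Hmgb2 against Neurog2 in either culture by the same limma test. At an unadjusted p under 0.05, the Hmgb2 comparison held 801 higher and 1006 lower peaks in bFGF culture and 2097 and 2086 in EGF+bFGF culture, and the comparison of Neurog2+Hmgb2 with Neurog2 held 1725 and 1511 in bFGF culture and 1365 and 906 in EGF+bFGF culture. The larger number of called sites with both factors in bFGF culture, against Neurog2 alone, thus stood beside no called site in the direct contrast or in the interaction. These comparisons share libraries with the interaction and are its components, not separate evidence.

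Sites that Neurog2 opens were the natural place to look, and they were chosen by the Neurog2 effect in one culture and scored in the other. The fit behind the choice shares its estimate of spread over all 25 libraries. A fit of the choosing culture alone, tried after the data were seen, gave 348 sites and 0.18 in bFGF culture, and 43 sites and 0.018 in EGF+bFGF culture. In bFGF culture the mean signal over the 348 sites that Neurog2 had opened more than 2-fold in EGF+bFGF culture was 4.86, 5.18 and 5.03 in the Neurog2+Hmgb2 libraries, 4.86, 4.53 and 5.02 in the Neurog2 libraries, 4.28, 4.10 and 4.26 in the Hmgb2 libraries and 4.12, 4.14 and 4.25 in the Control libraries. Every library with Neurog2 lay above every library without it, whereas the joint and the Neurog2 libraries overlapped. Neurog2+Hmgb2 lay 0.85 above Control, and the single effects summed to 0.68, of which Hmgb2 contributed 0.04. The interaction was 0.18 ± 0.19 (SE), with a 95% interval of -0.25 to 0.60 and a two-sided exact permutation p of 0.405 (Benjamini-Hochberg adjusted 0.901 over 6 scores). The smallest p that the 400 arrangements allow is 0.005. Without bFGF Neurog2 replicate 2, the lowest of the libraries with Neurog2, the interaction was 0.04, and it reached at most 0.29 when any other library was left out.

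The same score in EGF+bFGF culture, over the 58 sites opened by Neurog2 in bFGF culture, was 5.07, 5.31 and 5.46 with Neurog2+Hmgb2, 5.34, 5.41 and 5.08 with Neurog2, 4.40, 4.13, 4.09 and 4.25 with Hmgb2 and 4.23, 4.37 and 4.14 in Control. Libraries with both factors and with Neurog2 alone again overlapped, and both sets lay above all others. Neurog2+Hmgb2 exceeded Control by 1.03, against a sum of 1.00 for the single effects, so the interaction was 0.03 ± 0.18 (interval -0.36 to 0.43, exact permutation p = 0.83, adjusted 0.901). It ranged from -0.07 to 0.14 when each library was left out in turn.

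**Figure D1:**
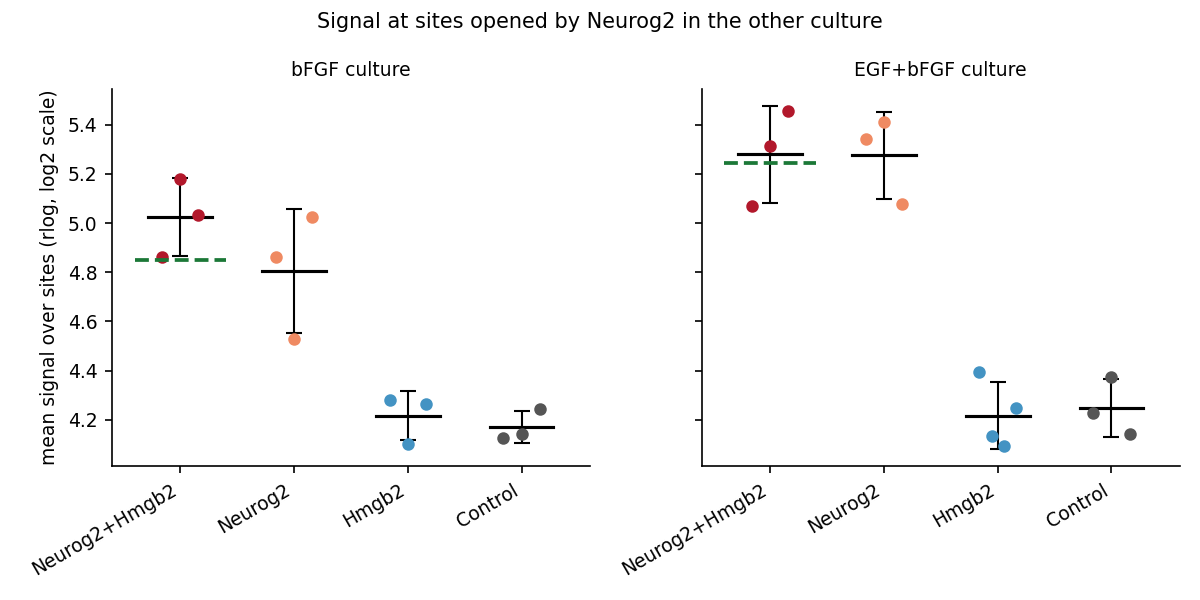
Mean rlog signal (log2 scale, y axis) over sites opened by Neurog2 in the other culture, for the 4 groups of each culture, with 1 point per library, a black line at the group mean and error bars of 1 SD. The green dashed line marks Control plus the sum of the single effects. The mean of Neurog2+Hmgb2 lies 0.18 above that line in bFGF culture and 0.03 above it in EGF+bFGF culture.

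Site by site, 268 of the 348 sites had a positive interaction in bFGF culture, with a median of 0.17, and 19 of them passed an unadjusted p under 0.05, all upward. Over all peaks 48.4% were positive and 3.49% passed upward. Of the 58 sites scored in EGF+bFGF culture, 33 were positive with a median of 0.06, and 1 passed. Sites within a set share the same libraries, so these counts are no more independent than the library scores above. With all peaks ranked by the Neurog2 effect in EGF+bFGF culture into 10 equal bins, the top bin had a median bFGF interaction of 0.11, and the other bins lay between -0.04 and 0.00. In the reverse direction the medians of the 10 bins lay between -0.03 and 0.04, and the top bin had -0.02.

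The Neurod4 distal site, whose sequence is printed above, belonged to these opened sites. In bFGF culture its signal was 4.87, 5.51 and 5.44 with Neurog2+Hmgb2, 4.93, 4.90 and 5.65 with Neurog2, 3.99, 3.88 and 3.92 with Hmgb2 and 3.90, 4.30 and 3.81 in Control. It was high in all 6 libraries with Neurog2 and low in the others, and the joint and the Neurog2 libraries overlapped. Neurog2+Hmgb2 raised it by 1.27 (limma adjusted p = 0.0016) and Neurog2 alone by 1.16 (adjusted p = 0.01) over Control. The interaction was 0.18 ± 0.32 in bFGF culture (interval -0.47 to 0.83) and -0.43 ± 0.31 in EGF+bFGF culture (interval -1.06 to 0.20), and weighting the libraries turned the bFGF value to -0.18. At the Neurod4 promoter the interaction was -0.37 ± 0.27 in bFGF culture and 0.00 ± 0.26 in EGF+bFGF culture.

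Promoter and distal peaks as classes had scores close to 0. Over the 15512 promoter peaks (within 3 kb of the start of a protein-coding gene) the interaction of the mean signal was -0.01 ± 0.07 in bFGF culture (exact permutation p = 0.9) and 0.05 ± 0.05 in EGF+bFGF culture (p = 0.407). Over the 30130 distal peaks it was 0.01 ± 0.06 in bFGF culture (exact permutation p = 0.87) and -0.01 ± 0.05 in EGF+bFGF culture (p = 0.901). The intervals of these 4 scores all lay between -0.16 and 0.16. When signals were first taken off the log scale, the bFGF promoter score turned positive and passed (28.7 linear units, exact permutation adjusted p = 0.03). The score for promoters in bFGF culture thus depended on the scale. On the linear scale strong peaks also weigh more in the mean, and this was not separated from how the effects were added.

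**Figure D2:**
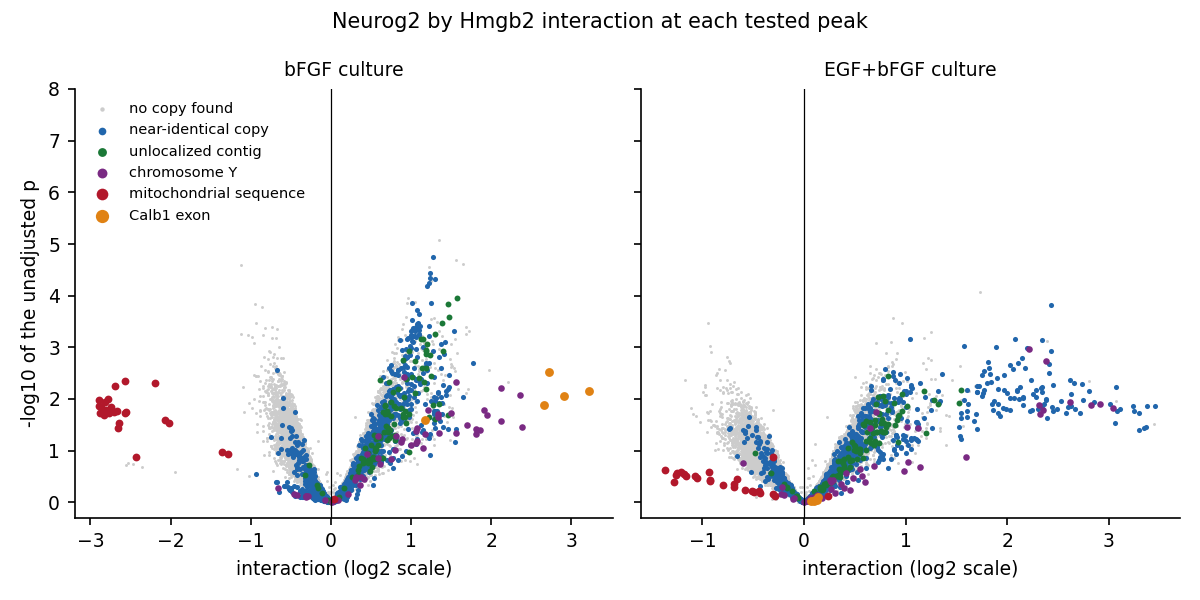
Interaction of each tested peak (log2 scale, x axis) against the -log10 of its unadjusted p (y axis), in bFGF culture (left) and EGF+bFGF culture (right), with 1 point per peak coloured by class: no copy found (grey), near-identical copy (blue), unlocalized contig (green), chromosome Y (purple), mitochondrial sequence (red) and Calb1 exon (orange). In bFGF culture the red points lie around their median of -2.68 and the orange ones between 1.18 and 3.22, and no peak in either panel passes an adjusted p under 0.05.

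A positive interaction did not usually mean a site that both factors opened together. Of the 1595 positive peaks in bFGF culture, 1436 (90.0%) had both single groups below Control, against 30.0% of all peaks, and the joint group was the highest of the 4 at 829 (52.0%), against 25.5% of all peaks. Their median difference to Control was 0.01 for Neurog2+Hmgb2, -0.38 for Neurog2 and -0.33 for Hmgb2. The EGF+bFGF values were similar, where 1021 of 1143 positive peaks (89.3%) had both single groups below Control, and the joint group was highest at 474 (41.5%). Negative interactions mirrored this, with both single groups above Control at 94.1% of them in bFGF and at 80.7% in EGF+bFGF culture. Control enters the interaction with a plus sign and the single groups with a minus sign, so selection on the interaction favours this shape, and the shares are a description.

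The individual sites with the smallest p give this pattern in full, none of them called. The Gm31371 site on chromosome 8 (chr8:20099782-20101137, intergenic, 3 copies of CAGATG) had 6.56, 6.57 and 6.04 with Neurog2+Hmgb2, 5.84, 5.61 and 5.65 with Neurog2, 5.79, 5.69 and 6.16 with Hmgb2 and 6.51, 6.41 and 6.47 in Control in bFGF culture. Joint and Control libraries were high, the Neurog2 libraries were lower than both without overlap, and the Hmgb2 libraries overlapped the lowest joint library. The interaction was 1.28 ± 0.25 in bFGF culture (limma adjusted p = 0.214), 0.80 ± 0.24 in EGF+bFGF culture and 1.04 ± 0.17 on average (adjusted p = 0.0653). Neurog2 alone lay 0.77 below Control there (adjusted p = 0.0267), and Neurog2+Hmgb2 differed from Control by -0.07. Its average was called without bFGF Hmgb2 replicate 3 (adjusted p = 0.0268) and without bFGF Neurog2+Hmgb2 replicate 3 (adjusted p = 0.0154).

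The promoter of the predicted gene Gm21119, in the same region of chromosome 8 (chr8:20614278-20615787), had 6.34, 6.31 and 6.00 with Neurog2+Hmgb2, 5.50, 5.63 and 5.56 with Neurog2, 5.52, 5.77 and 5.43 with Hmgb2 and 6.20, 6.48 and 6.13 in Control in bFGF culture. Both single groups lay below joint and Control libraries without overlap. Its interaction was 1.35 ± 0.25 in bFGF culture, 0.67 ± 0.24 in EGF+bFGF culture and 1.01 ± 0.18 on average (limma adjusted p = 0.0653). A coding exon of Muc6, which encodes a secreted mucin (chr7:141638526-141639867), had 6.61, 6.46 and 6.41 with Neurog2+Hmgb2, 5.74, 6.10 and 5.87 with Neurog2, 5.82, 5.46 and 6.05 with Hmgb2 and 6.36, 6.55 and 6.41 in Control in bFGF culture. The single groups were again the lower ones, with an average interaction of 1.01 ± 0.18 (adjusted p = 0.0879). An intron of Cldn34d, a claudin-family gene on chromosome X, had an interaction of 1.55 ± 0.31 in bFGF culture (adjusted p = 0.214) and 0.70 ± 0.30 in EGF+bFGF culture.

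The negative bFGF and averaged interactions described next lay at promoters. The promoter of Plekhf1, an endosomal protein (chr7:38227093-38228350), had 6.99, 6.48 and 6.63 with Neurog2+Hmgb2, 7.37, 7.50 and 7.23 with Neurog2, 7.44, 7.82 and 7.26 with Hmgb2 and 7.21, 7.00 and 6.95 in Control in bFGF culture. Both single groups lay above Control and the joint group, without overlap with either, and the interaction was -1.12 ± 0.23 (limma adjusted p = 0.214), against -0.18 ± 0.22 in EGF+bFGF culture. At the promoter of S100a6, a calcium-binding protein of astrocytes and other cells, the bFGF values were 5.66, 5.61 and 5.80 with Neurog2+Hmgb2, 5.85, 6.27 and 5.74 with Neurog2, 5.95, 6.25 and 6.03 with Hmgb2 and 5.12, 5.74 and 5.30 in Control. The Hmgb2 libraries were above all joint and Control libraries, the Neurog2 libraries overlapped the joint ones, and the interaction was -0.95 ± 0.22 in bFGF culture, -0.46 ± 0.21 in EGF+bFGF culture and -0.71 ± 0.15 on average (adjusted p = 0.11). Stag2, a cohesin subunit, had -0.72 ± 0.17 on average (adjusted p = 0.125), and Spg11, a lysosome-linked protein, had -0.86 ± 0.20 in bFGF culture (adjusted p = 0.36).

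In EGF+bFGF culture the smallest p of a positive interaction at a promoter was at Adora2b, an adenosine receptor (chr11:62248493-62249603). Its signal was 5.77, 5.77 and 5.55 with Neurog2+Hmgb2, 5.43, 5.36 and 5.50 with Neurog2, 5.11, 5.05, 5.23 and 5.50 with Hmgb2 and 5.76, 5.69 and 6.03 in Control. Joint and Control libraries overlapped above both single groups, and the interaction was 0.87 ± 0.21, against 0.37 ± 0.22 in bFGF culture (adjusted p at least 0.893 in both). Further positive values in this culture lay at intergenic sites far from genes, 1.73 ± 0.38 at 545 kb from Cdh12 and 2.43 ± 0.56 near Usp10, a site with a near-identical copy. Negative values were -0.94 ± 0.23 in an intron of Ghr, the growth hormone receptor, -0.92 ± 0.26 in an intron of Robo1, a guidance receptor, and -0.92 ± 0.25 at 839 kb from Slitrk1.

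**Figure D3:**
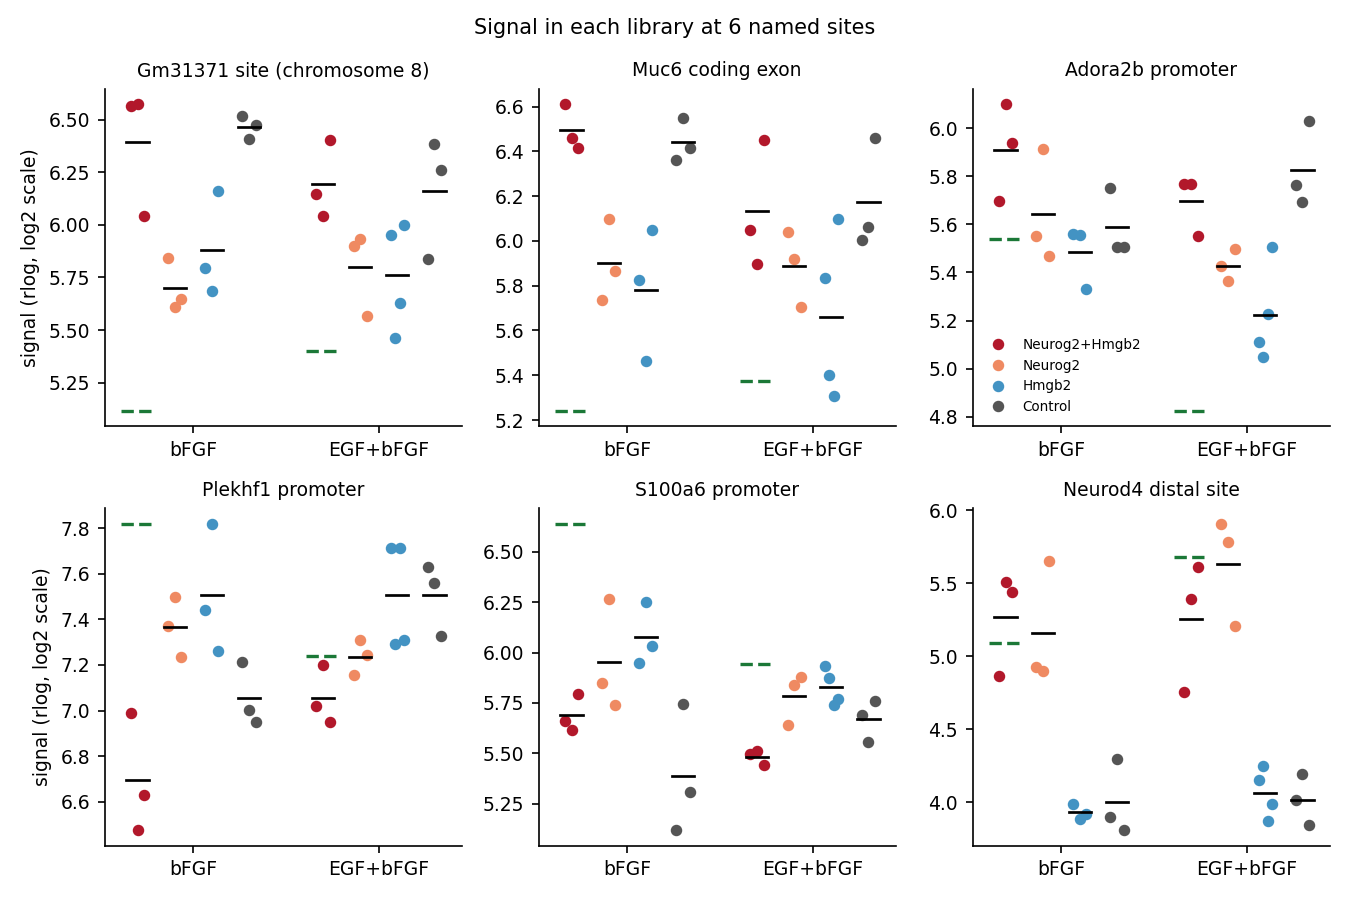
Rlog signal (log2 scale, y axis) at 6 sites (Gm31371, Muc6, Adora2b, Plekhf1, S100a6 and the Neurod4 distal site) in bFGF and EGF+bFGF culture, with 1 point per library coloured by group, a black line at the group mean and the green dashed line at Control plus the sum of the single effects. At the Gm31371 site the joint mean of 6.39 in bFGF culture lies 1.28 above that line and close to the Control mean of 6.47.

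The peaks with positive interactions were not spread evenly over the genome. On chromosome 8 between 19 and 21 Mb, a region with many repeated gene copies, 139 peaks had a median interaction of 0.81 in bFGF culture, 0.46 in EGF+bFGF culture and 0.61 on average, against -0.01, 0.00 and -0.01 over all peaks. At an unadjusted p under 0.05, 109 of them were positive in bFGF culture, 45 in EGF+bFGF culture and 120 on average, and none was negative. The region was chosen after its values were seen, and its peaks share libraries and sequence, so no test was made. Of the 139 peaks, 110 had a near-identical copy among the other peaks, against 2.85% of all peaks.

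The mean signal over these 139 peaks was 5.60, 5.71 and 5.34 with Neurog2+Hmgb2, 5.24, 5.08 and 5.14 with Neurog2, 5.18, 5.27 and 5.41 with Hmgb2 and 5.60, 5.85 and 5.53 in Control in bFGF culture. The Neurog2 libraries lay below the joint and the Control libraries without overlap, and the Hmgb2 libraries below Control without overlap. In EGF+bFGF culture the mean was 5.46 ± 0.21 with Neurog2+Hmgb2, 5.20 ± 0.06 with Neurog2, 5.21 ± 0.16 with Hmgb2 and 5.38 ± 0.21 in Control (SD). Joint and Control means thus lay above both single means in both cultures, with wider overlap in EGF+bFGF culture. In bFGF culture 21 of the 139 peaks fell with Neurog2 against Control by the limma test, against 0.368% of all peaks.

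**Figure D4:**
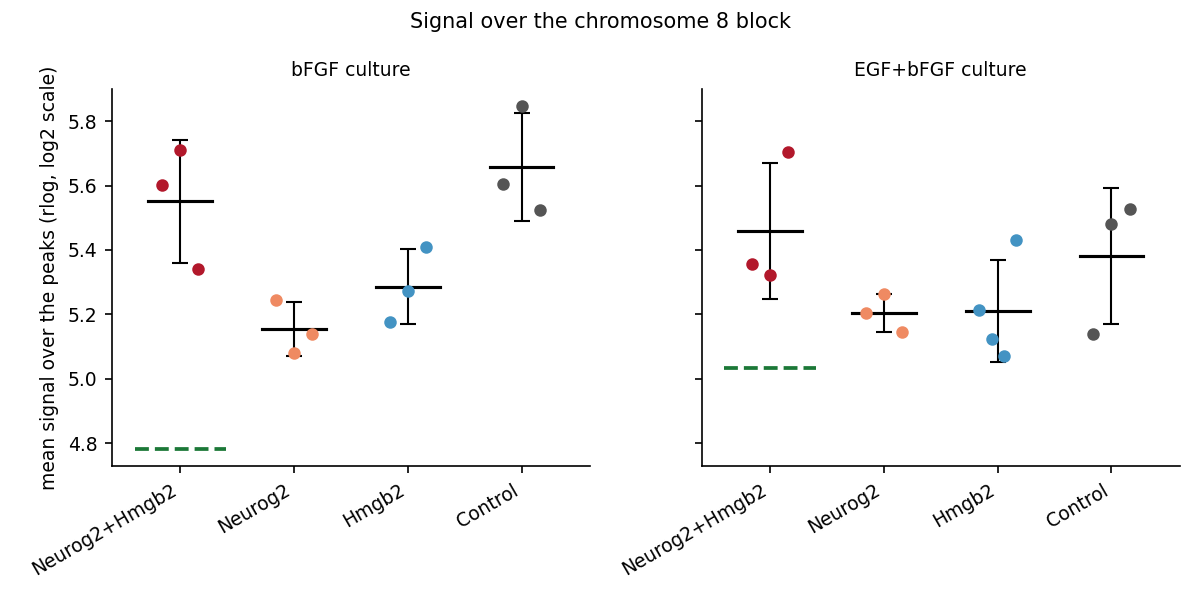
Mean rlog signal (log2 scale) over the 139 peaks between 19 and 21 Mb of chromosome 8, with 1 point per library, a black line at the group mean, error bars of 1 SD and the green dashed line at Control plus the sum of the single effects. In bFGF culture the joint mean is 5.55 and the Control mean 5.66, while the single groups have 5.15 with Neurog2 and 5.29 with Hmgb2.

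Peaks with a copy were compared with the rest. The 1299 peaks with a copy (at least 95% identity over at least 100 bases and 0.5 of the peak) had a median average interaction of 0.21, against -0.01 for the 44343 others, and they made up 44 of the 100 positive peaks with the smallest p but 1 of the 100 negative ones. Outside the chromosome 8 region, 1189 peaks with a copy had a median of 0.17, and 247 of them (20.8%) were positive at an unadjusted p under 0.05, against 4.44% of all peaks. The matching bases printed above belong to a peak (chr8:20528240-20529756) whose own interaction was 1.05 ± 0.27 in bFGF culture, 0.74 ± 0.26 in EGF+bFGF culture and 0.90 ± 0.19 on average (limma adjusted p = 0.11). Reads of such peaks can be placed at either copy, so their values are not independent and the position is uncertain. Values were also positive on unlocalized contigs, with a median of 0.71 in bFGF and 0.55 in EGF+bFGF culture over 106 peaks, and at the 52 peaks of chromosome Y, with 0.88 in bFGF and 0.34 in EGF+bFGF culture. The contig peaks were not searched for copies and count above among the peaks without one. Without the peaks with a copy, no peak was called for any interaction, the same as with all peaks. On average 1680 peaks were still positive against 1184 negative at an unadjusted p under 0.05. With contigs, chromosome Y and peaks sharing mitochondrial sequence left out as well, 1592 were positive and 1172 negative.

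The largest values came from a few sets of peaks, described here after their values were seen. In bFGF culture 9 peaks had an interaction above 2: 4 lay on chromosome Y, 4 over Calb1 exons and 1 near Pepd. Below -2 lay 26 peaks, of which 22 shared sequence with the mitochondrial genome and 4 lay at the Sox2 promoter, near Pgk1 and Taf9b on chromosome X and in an intron of Gt(ROSA)26Sor next to Setd5. In the other culture 84 peaks lay above 2 and none below -2. Of the 84, 9 were on chromosome Y, and 70 of the other 75 had a copy. The mean signal of these 75 was 5.96, 7.58 and 6.26 with Neurog2+Hmgb2, 5.26, 6.36 and 4.69 with Neurog2, 7.66, 6.07, 5.93 and 4.67 with Hmgb2 and 6.57, 8.59 and 7.22 in Control in EGF+bFGF culture. Control lay above Neurog2 without overlap, while the joint and Hmgb2 libraries overlapped both.

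The 5 Calb1 exon peaks had interactions of 1.18 to 3.22 in bFGF culture and of 0.07 to 0.13 in EGF+bFGF culture. Their mean signal was 2.38, 2.55 and 2.66 with Neurog2+Hmgb2, 2.37, 2.59 and 2.47 with Neurog2, 2.57, 2.54 and 2.74 with Hmgb2 and 2.53, 8.23 and 4.53 in Control in bFGF culture. Only Control replicates 2 and 3 were high, and all EGF+bFGF libraries lay between 2.30 and 2.68. Between 42.5% and 81.8% of each of these peaks was exon. The promoter peak is 1 of the 5, with 5.19, 5.36 and 5.12 in the joint libraries and 4.99, 7.83 and 5.89 in Control, so the positive Calb1 promoter interaction of 1.18 ± 0.50 (limma adjusted p = 0.785) rested on the Control libraries. It was 0.38 without bFGF Control replicate 2, and without bFGF Control replicate 1, which was the low one, 3 of the other Calb1 peaks were called.

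The 25 peaks sharing mitochondrial sequence had a median interaction of -2.68 in bFGF culture, and 21 of them had an unadjusted p under 0.05 (84%, against 2.53% of all peaks). Their group means were 10.0 with Neurog2+Hmgb2, 10.6 with Neurog2, 10.8 with Hmgb2 and 8.95 in Control, and the libraries of every group were spread widely, from 7.99 in Control replicate 1 to 12.1 in Hmgb2 replicate 1. The Control libraries reached 9.60 at most, and all 3 Neurog2 libraries lay above them, whereas the joint and Hmgb2 libraries overlapped Control. The 4 peaks at or near Sox2, Pgk1, Taf9b and Setd5 had -2.36 to -2.56 in bFGF culture with none at an unadjusted p under 0.05. Their mean lay at 11.1 in Neurog2+Hmgb2 replicate 1, 11.8 in Neurog2 replicate 1 and 12.1 in Hmgb2 replicate 1, with 6.82 to 8.73 in the other bFGF libraries. No bFGF Control library was high. With EGF as well, 1 library of each group was high, at 11.5 with Neurog2+Hmgb2, 11.3 with Neurog2, 11.8 with Hmgb2 and 11.7 in Control, with 6.78 to 8.09 in the others. Sox2, a factor of neural stem cells, is also a member of the astrocyte list described next.

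By gene list, promoters of 13496 genes were compared, each by its promoter peak of highest mean signal, and no member of any of the 19 lists was called. Over all these genes the median average interaction was 0.01, with 539 positive (3.99%) and 470 negative (3.48%) at an unadjusted p under 0.05. In bFGF culture the median was -0.03 with 298 positive (2.21%) and 574 negative (4.25%), and in EGF+bFGF culture it was 0.04 with 259 (1.92%) and 87 (0.645%). The counts of the lists below are read against these shares.

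The core neurogenic genes that the study followed, 9 of 10 of which had a promoter peak, had a median average interaction of 0.02, with 0 positive and 2 negative at the unadjusted threshold (limma). Their values lay between -0.36 and 0.25. Prox1, a homeobox factor of neuronal differentiation, had 5.92, 5.78 and 5.83 with Neurog2+Hmgb2, 5.98, 6.24 and 6.15 with Neurog2, 6.25, 6.34 and 6.47 with Hmgb2 and 6.33, 5.89 and 6.48 in Control in bFGF culture. Its joint libraries were below the Neurog2 and the Hmgb2 libraries without overlap, and the average interaction was -0.36 ± 0.17 (interval -0.70 to -0.02, adjusted p = 0.683). Shf, an adaptor protein, had -0.32 ± 0.15. Slit1, a secreted guidance cue, had 0.25 ± 0.17, and Insm1, a zinc finger factor of neuronal progenitors, 0.23 ± 0.19. Sox11, a factor of newborn neurons, had -0.08 ± 0.17, Gadd45g, a growth arrest gene, 0.06 ± 0.18, Lrp8, a reelin receptor, 0.07 ± 0.14, and Hes6, an inhibitor of Hes1, 0.02 ± 0.19. The sign of Sox11 and Lrp8 in bFGF culture, and of Hes6 on average, turned under other scalings, so these are values around 0 without a direction.

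The 4 synapse examples of the study had positive averages, with a median of 0.43 and 1 of 4 at an unadjusted p under 0.05. The study chose them on these samples, so they are not independent evidence of a direction. Artn, a ligand of the GDNF family, had 4.27, 3.89 and 3.90 with Neurog2+Hmgb2, 3.48, 3.56 and 3.86 with Neurog2, 3.63, 3.91 and 3.54 with Hmgb2 and 3.68, 3.71 and 3.78 in Control in bFGF culture. In EGF+bFGF culture its values were 4.33, 4.24 and 4.24 with Neurog2+Hmgb2, 3.85, 3.96 and 3.83 with Neurog2, 3.77, 3.72, 3.70 and 3.84 with Hmgb2 and 3.84, 3.80 and 3.82 in Control. The joint libraries were the highest in EGF+bFGF culture without overlap, and in bFGF culture they lay above Neurog2 and Control but overlapped Hmgb2. The interaction was 0.42 ± 0.21 in bFGF culture, 0.45 ± 0.21 in EGF+bFGF culture and 0.43 ± 0.15 on average (interval 0.13 to 0.74, limma adjusted p = 0.401). Kif1a, a motor for synaptic vesicle precursors, had 0.43 ± 0.23 on average, and Rasd2, a small GTPase of the striatum, 0.09 ± 0.14. Calb1 had 0.66 ± 0.35 at its promoter peak, a value that rested on the Control libraries described above. The site that the study tested for Neurog2 binding at Calb1 is another, distant one, so this value does not describe it. Cplx2, a complexin of vesicle release, is not among the 4 examples but was tested by the study for Neurog2 binding at another peak. Its promoter peak had 0.12 ± 0.15 on average.

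Among the wider neuronal lists, synapse genes (39 of 54 with a promoter peak) had a median average interaction of 0.07, with 4 positive and 0 negative at the unadjusted threshold. Rims2, an active zone protein, had 0.51 ± 0.19, and Gria4, an AMPA receptor subunit, 0.44 ± 0.16. Potassium channel genes (35 of 43) had the highest median among lists of more than 10 promoters, 0.15, with 4 positive and 1 negative, and 28 of 35 lay above 0. Kcnd2, an A-type channel subunit, had 0.43 ± 0.17, and Kcnj2, an inward rectifier, had -0.36 ± 0.15. Axon guidance genes (40 of 43) had a median of 0.01 with 5 positive and 0 negative, and Notch pathway genes (23 of 25), which restrain neuronal differentiation, 0.03 with 1 and 0.

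Ntn1, which encodes the guidance cue netrin, led the axon guidance list. Its promoter had 6.04, 6.23 and 6.33 with Neurog2+Hmgb2, 5.76, 5.50 and 5.77 with Neurog2, 5.47, 5.39 and 5.99 with Hmgb2 and 6.34, 5.63 and 5.71 in Control in bFGF culture. The joint libraries were above both single groups without overlap but overlapped Control, and the interaction was 0.80 ± 0.27 in bFGF culture, 0.52 ± 0.26 in EGF+bFGF culture and 0.66 ± 0.19 on average (limma adjusted p = 0.234). Neurogenic transcription factors (35 of 42) had a median of 0.02 with 3 positive and 1 negative, and neuronal cytoskeleton and early neuronal genes (29 of 40) had 0.08 with 2 and 0. Tubb3, the neuronal tubulin, had 6.03, 6.12 and 6.32 with Neurog2+Hmgb2, 5.78, 5.53 and 5.87 with Neurog2, 5.77, 5.33 and 5.67 with Hmgb2 and 5.78, 5.73 and 5.91 in Control in bFGF culture. All 3 joint libraries were above all others, and the interaction was 0.65 ± 0.23 (adjusted p = 0.674), against 0.08 ± 0.22 in EGF+bFGF culture. In bFGF culture alone, 1 member of this list was positive and 1 negative at the unadjusted threshold. The lowest bFGF value of the list was -0.53, at Elavl2, a neuronal RNA-binding protein.

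Cell cycle genes (43 of 44) had the lowest median average interaction among lists of more than 10 promoters, -0.13, with 0 positive and 5 negative at the unadjusted threshold, and 11 of 43 lay above 0. The median was -0.11 in each culture. Cdc20, an activator of the anaphase-promoting complex, had 7.28, 6.91 and 7.11 with Neurog2+Hmgb2, 7.54, 7.80 and 7.47 with Neurog2, 7.25, 7.44 and 7.20 with Hmgb2 and 7.26, 7.26 and 7.17 in Control in bFGF culture. The Neurog2 libraries were the highest without overlap, and the interaction was -0.57 ± 0.19 in bFGF culture and -0.42 ± 0.13 on average (limma adjusted p = 0.298). Ccnd2, a cyclin of early division, had -0.63 ± 0.20 in bFGF culture and -0.03 ± 0.19 in EGF+bFGF culture. High mobility group genes (17 of 18), the family of Hmgb2, had a median of 0.00 with 0 positive and 1 negative, Hmgn1 at -0.36 ± 0.13. Actin, stress fibre and adhesion genes (47 of 49) had -0.01 with 1 positive and 2 negative, growth factor and MAPK response genes (36 of 39) 0.03 with 1 and 0, and pluripotency genes (4 of 18) 0.05 with 0 and 1.

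Astrocyte genes (42 of 47) had a median average interaction of 0.02 with 1 positive and 2 negative. Gfap, Aqp4, Aldh1l1, Slc1a3 and Sox9, which mark astrocytes, each had a promoter peak, and S100b, Aldoc, Gjb6, Cldn10 and Slc7a10 did not. Nes, an intermediate filament of progenitors and reactive astrocytes, had 0.78 ± 0.25 in bFGF culture, where its values were 4.94, 5.29 and 4.90 with Neurog2+Hmgb2, 4.74, 4.36 and 4.89 with Neurog2, 4.61, 4.67 and 4.89 with Hmgb2 and 5.15, 4.97 and 5.26 in Control. Control was above both single groups without overlap and the joint libraries overlapped Control. The average interaction of Nes lay between 0.476 and 0.642 when each library was left out in turn. Nfia, another member of the list, went the other way, with an average between -0.503 and -0.346 under the same alternatives. For other cell types the culture could hold, oligodendrocyte lineage genes (12 of 21) had a median of 0.10, fibroblast, meningeal and mural genes (15 of 23) -0.06, endothelial genes (5 of 17) 0.23 and microglia and immune genes (5 of 22) 0.07. At the unadjusted threshold 0, 0, 2 and 1 of them were positive and none was negative. The microglial genes Aif1, Cx3cr1 and P2ry12 and the endothelial genes Pecam1, Cldn5, Cdh5 and Tek had no promoter peak, and few promoters stand behind those medians. In bulk samples fewer cells of a type and less accessible chromatin per cell cannot be told apart.

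**Figure D5:**
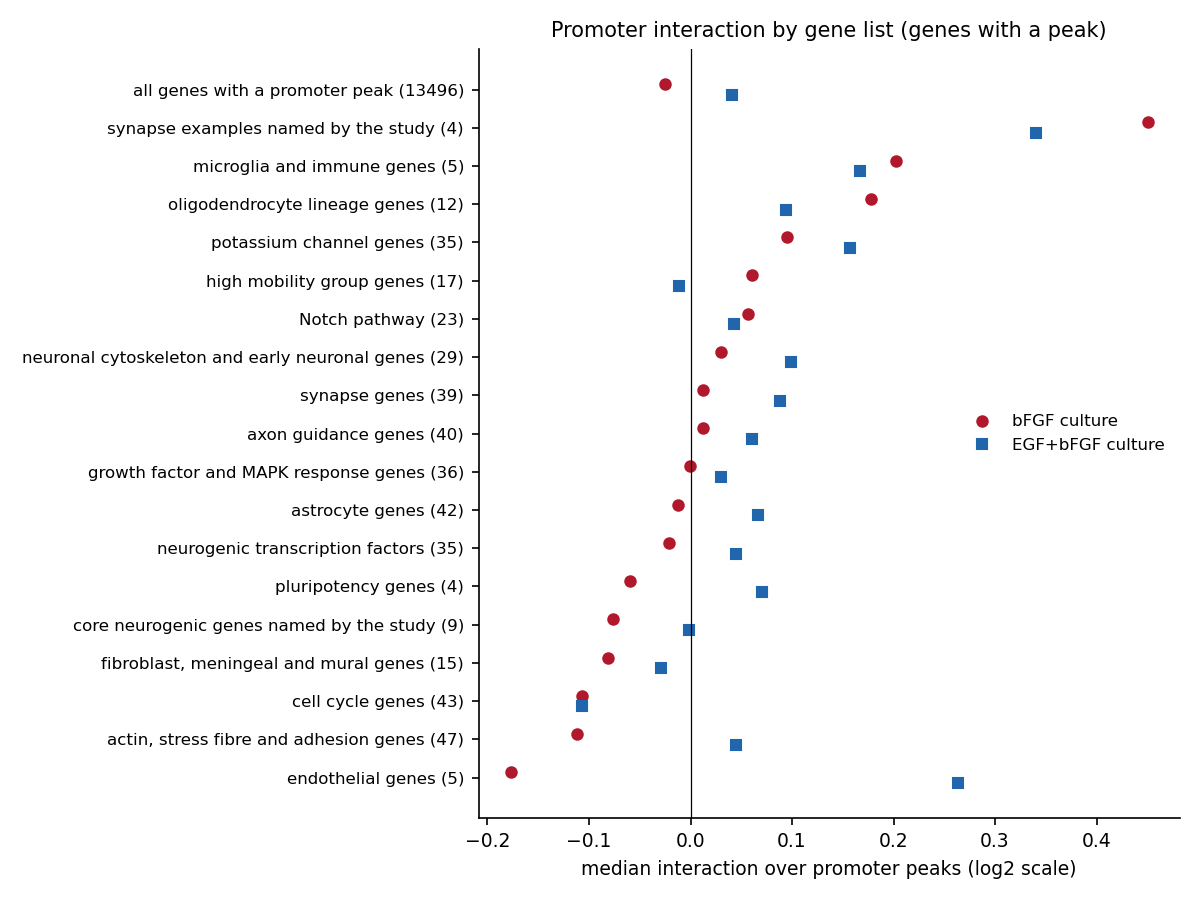
Median interaction of the promoter peaks of 18 gene lists (log2 scale, x axis), as a red circle for bFGF culture and a blue square for EGF+bFGF culture, with the number of promoters in brackets and all genes with a promoter peak in the top row (-0.03 in bFGF and 0.04 in EGF+bFGF culture). Potassium channel genes lie at 0.10 in bFGF and 0.16 in EGF+bFGF culture, and cell cycle genes at -0.11 in each.

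Peaks were also grouped by sequence. The E-box CAGATG, searched on both strands, was found in 39.9% of the peaks searched, and ATGCAAAT, the octamer bound by POU factors, in 3.32%, where the letters ATG of both may overlap. The 762 peaks with both motifs had a median interaction of 0.05 in bFGF culture, with 59 positive (7.74%, against 3.49% of all peaks) and 13 negative at an unadjusted p under 0.05, and 59.1% of them lay above 0, against 48.4% of all peaks. In EGF+bFGF culture their median was -0.02, with 20 positive (2.62%, against 2.5% of all peaks) and 14 negative. The study found E-box and POU motifs in sites that it chose on these samples, so the pair is not independent evidence. Peaks with both motifs were also wider (median 674.5 against 511 bases over all peaks) and more often had a copy (4.99% against 2.85%). The 17417 peaks with CAGATG alone had 0.00 in each culture, and the 749 with ATGCAAAT alone had 0.01 in bFGF and -0.03 in EGF+bFGF culture. In bFGF culture 3.27% of the peaks with CAGATG alone, 27 of the 749 with ATGCAAAT alone and 3.30% of those with neither were positive at that threshold. Among the 348 sites opened by Neurog2 in EGF+bFGF culture, CAGATG was present in 92.0%.

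Whether the interaction itself depended on the culture was tested as bFGF minus EGF+bFGF. No peak was called (limma, smallest adjusted p 0.99998), 499 peaks were positive (1.09%) and 570 negative (1.25%) at an unadjusted p under 0.05, together 1069 (2.34%), and the median standard error was 0.359. Positive differences with the smallest p lay in an intron of a noncoding gene 177 kb from Dio2, a deiodinase of astrocytes (1.16 ± 0.32), at 219 kb from Cdh6 (1.20 ± 0.35) and 23.9 kb from Slc20a1, a phosphate transporter (1.11 ± 0.33). Negative ones lay in an intron of Sdc4, a syndecan (-1.33 ± 0.38), and at 114 kb from Fut10 (-1.14 ± 0.32). Across peaks, the interactions of the 2 cultures, which share no library, correlated with a Pearson r of 0.27 and a Spearman rho of 0.23 over 45642 peaks, and 57.4% had the same sign. Peaks are not independent replicates, and they share base composition and copy number between cultures, so these values are a description.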

How the data were processed

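Reads had been trimmed, aligned to mm10 with Bowtie2 and called into peaks per sample with Genrich, and the deposited table holds 45672 merged peaks. Its values are rlog values on the log2 scale, which the authors made from read counts with DESeq2 1.36.0; the log2 table keeps no depth, so the precision rests on the spread between libraries alone. All per-sample columns were used.

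Groups followed the labels. Each tested peak was fitted with limma 3.58.1 (R 4.3.3) as 8 group means over 25 libraries (17 residual degrees of freedom), and variances were moderated with a trend on mean signal. P-values were adjusted by Benjamini-Hochberg over 45642 peaks, and called means an adjusted p under 0.05. Sites chosen in the other culture, promoters and distal peaks were scored per library by exact permutation. It exchanges the Hmgb2 labels among the libraries with Neurog2 and, separately, among those without. The p-value is exact where Hmgb2 has no effect in either set, and not for additive effects in general. Sequence shared with the inserts was searched with blastn 2.17.0 (E-value up to 1e-10) on GRCm38 with GENCODE genes. The 106 tested peaks on unlocalized contigs were not searched. The fit was tested on simulated data.

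Named sites were, per interaction and direction, the 3 peaks with the smallest p (1 per nearest gene), per gene list the 2 members with the smallest p on average and the 2 in bFGF culture, all members of lists the study named, and the Neurod4 distal site. Some sites and 1 short list are not reported here. Members, lists and tests were chosen with earlier results of these data known. The alternatives tried were another prior, 1 culture only, library weights, median centring, quantile normalization, a filter on low signal, the linear scale, a fold limit, keeping the left-out peaks, a replicate block and leaving out each library, and after seeing the data also leaving out peaks with a copy, the chromosome 8 region and other non-unique peaks, and choosing opened sites from 1 culture's fit.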

Additional observations from a re-analysis of the deposited data

Results flagged for a closer look

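Among 84 named sites and 3 site scores, 5 sites had 1 of the 4 EGF+bFGF Hmgb2 libraries far from the other 3 (the gap to the nearest library, as a share of the group's range, above Dixon's 95% critical value for 4 samples). Chance gives such a gap in about 1 of 20 groups. The share was 0.836 at Usp10, where replicate 1 was high at 5.10, and 0.834 at Slitrk1, where replicate 2 was high at 3.37. It was 0.892 at Ier2, an immediate early gene, where replicate 1 was low at 5.61, and 0.835 at Dusp5, a phosphatase that dampens MAPK signals, where replicate 2 was low at 6.41. At Klf4, a pluripotency and epithelial factor, it was 0.874 and replicate 4 was high at 6.88.

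The peaks left out of the interaction carried signal above Control. The 28 peaks sharing the Hmgb2 coding sequence lay 1.32 higher with Hmgb2 than in Control in bFGF culture and 1.26 higher in EGF+bFGF culture. The peak sharing the Neurog2 coding sequence lay 5.96 higher with Neurog2 than in Control in bFGF culture and 4.5 higher in EGF+bFGF culture. These are values outside the tested peaks, and the share of insert sequence in them was not tested.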

How the results depend on the processing

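The absence of calls held for the EGF+bFGF interaction and for the difference between cultures under every alternative run. In bFGF culture 4 peaks were called when only the libraries of that culture were fitted (nearest to Gdi2, Vmn1r238, Rfc3 and Cldn34d), and leaving out each library in turn gave 0 to 4, the 4 without bFGF Control replicate 1 (Pigk and 3 Calb1 peaks). The averaged interaction had 2 calls with a robust prior (Gm31371 and Gm21119), 2 among peaks with mean signal above the median, 249 with library weights and 188 with the replicate block. Leaving out each library gave 0 to 183. The 183 arose without EGF+bFGF Hmgb2 replicate 4, and there were 177 without EGF+bFGF Control replicate 1. Of the 239 peaks called positive with library weights, 48 lay in the chromosome 8 region, 88 had a copy, and at 226 both single groups were below Control in both cultures. The 4 settings with most calls shared 114 peaks. No peak was called among unique peaks only, without peaks with a copy or without the chromosome 8 region, which were alternatives chosen after seeing the data. They used the main fit, which called no peak over all peaks either. They therefore cannot show whether the calls under library weights would remain without those peaks. The causes of these shifts were not tested.

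Replicate numbers did not pair the libraries throughout. The deviations of same-numbered libraries correlated between -0.47 and 0.40 in bFGF culture (median 0.21, against -0.10 for differently numbered ones). In EGF+bFGF culture the range was -0.28 to 0.37 (median 0.02, against -0.03). As a hint from the data, 9 of 12 bFGF libraries but 3 of 12 EGF+bFGF libraries correlated best with one of their own number. Not every pair passed 0.1, so the replicate block is given here only.

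Site scores lay close to 0 and several changed sign. The promoter score in bFGF culture was 0.0025 after quantile normalization, 28.7 on the linear scale and between -0.038 and 0.031 when each library was left out. The distal score in bFGF culture was -0.022 after median centring, -0.0013 after quantile normalization, -104 on the linear scale and between -0.030 and 0.035 with libraries left out, and the distal score in EGF+bFGF culture lay between -0.031 and 0.035. For opened sites in EGF+bFGF culture the linear value was -0.75 and the range -0.065 to 0.14. Among named sites in bFGF culture, library weights gave -0.18 at the Neurod4 distal site, 0.011 at Sox11, 0.063 at Cplx2, 0.083 at Lrp8 and 0.0019 at Rasd2, and quantile normalization gave 0.036 at Sox11 and 0.020 at Lrp8. The average at Hes6 was -0.0024 after median centring and -5.87 on the linear scale. With libraries left out, the bFGF values ranged from -0.11 to 0.27 at Hes6, -0.22 to 0.11 at Sox11, -0.26 to 0.060 at Gadd45g, -0.19 to 0.10 at Cplx2 and -0.16 to 0.084 at Lrp8. The averages ranged from -0.057 to 0.14 at Hes6, -0.23 to 0.0025 at the Neurod4 distal site, -0.15 to 0.019 at Sox11 and -0.029 to 0.16 at Gadd45g. Of the other values of named sites, 1379 kept their sign and their side of the threshold and 16 passed it newly under alternatives that keep all libraries.

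With 3 or 4 libraries a group and the adjustment over all peaks, even the averaged value of 1.04 ± 0.17 at Gm31371 was not called. The rlog values carry no depth and shrink weak peaks, and 1 alternative, the fit of a single culture, cannot give the average or the difference between cultures.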

Other observations

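Windows of 1 Mb with at least 10 tested peaks (1864 windows) were ranked by their median average interaction, as a description made after the data were seen. The highest, 170 to 171 Mb of chromosome X, had a median of 0.95 over 13 peaks, 7 of them with a copy. It was followed by 55 to 56 Mb of chromosome 8, with 0.90 over 12 peaks, 11 of them with a copy. A window at 88 to 89 Mb of chromosome 1 had 0.66 over 37 peaks, none with a copy, and 20 of them were positive at an unadjusted p under 0.05. The lowest window, 75 to 76 Mb of chromosome 7, had -0.21 over 28 peaks and none with a copy. The window at 20 to 21 Mb of chromosome 8 ranked 8 with 0.63 over 113 peaks.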
